A study of Mus musculus with 16 samples.

Results

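The genes described here are 10 NF-κB inhibitor and A20 feedback genes: Nfkbia, Nfkbib, Nfkbie, Nfkbiz, Nfkbid, Bcl3, Tnfaip3, Tnip1, Tnip2 and Cyld. They are called inhibitors below as the name of the list, not as a measured role. They were chosen by name, as the IκB family, A20 and its partners, and CYLD, with earlier results of these data known. All 10 stood among the 23337 gene symbols of the count table, and all 10 were among the 9213 genes that passed the filter on low counts. Blood neutrophils were taken from 8 week old LTβRΔN mice (Ltbr fl/fl x Mrp8-Cre) and from littermate controls (Ltbr fl/fl without Cre). All carry the strain label C57/Bl6. In LTβRΔN mice, Cre driven by the S100A8 promoter deletes the lymphotoxin β receptor. The cells were enriched by magnetic negative selection and measured by bulk RNA-Seq in 16 libraries, numbered 67 to 83. There were 3 unstimulated (71 to 73) and 4 stimulated (80 to 83) control libraries, and 4 unstimulated (67 to 70) and 5 stimulated (75 to 79) LTβRΔN libraries. The treatment protocol gives 2 h in a mix of 100 ng/ml TNF, 50 ng/ml IL-6 and 100 ng/ml GM-CSF, to which 500 ng/ml LIGHT (a ligand of LTβR) was or was not added, whereas the design text names only the presence or absence of cytokines. The labels do not say what a single library received, so the groups are called stimulated and unstimulated throughout.

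NF-κB is a family of dimeric transcription factors that classical IκB proteins (the products of Nfkbia, Nfkbib and Nfkbie) hold in the cytoplasm until a stimulus such as TNF leads to their degradation. The freed dimers switch on inflammatory genes and also genes for their own inhibitors, foremost IκBα and the ubiquitin-editing enzyme A20 (Tnfaip3), which ends the signal. The atypical IκB proteins IκBζ, IκBNS and Bcl-3 (Nfkbiz, Nfkbid and Bcl3) act in the nucleus on chosen target genes, ABIN-1 and ABIN-2 (Tnip1 and Tnip2) bind A20, and CYLD removes ubiquitin chains from proteins of the same pathway.

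The sequences upstream of the start sites are shown because Nfkbia and Tnfaip3, the members with the largest differences between treatment labels, are textbook NF-κB targets, and because the same letters also stand before members whose RNA did not pass the test. Promoters (250 bases before to 50 after a start) were taken from RefSeq, GRCm38.p6, whose table matched 9 of the 10 symbols, all but Nfkbiz, with 12 promoters. The general κB consensus, GGANTTTCC (which overlaps it in part) and TGANTCA (an AP-1 site) were searched on both strands. Capitals mark matches to the κB consensus or to GGANTTTCC. Bases of annotated exons of the gene were left out.
Nfkbia, chr12:55492648-55492897, minus strand: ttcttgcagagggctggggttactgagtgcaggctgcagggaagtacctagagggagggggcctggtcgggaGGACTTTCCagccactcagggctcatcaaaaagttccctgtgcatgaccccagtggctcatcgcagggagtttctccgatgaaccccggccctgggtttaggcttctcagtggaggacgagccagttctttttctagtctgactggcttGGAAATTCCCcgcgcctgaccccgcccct
Tnfaip3, chr10:19015411-19015547, minus strand: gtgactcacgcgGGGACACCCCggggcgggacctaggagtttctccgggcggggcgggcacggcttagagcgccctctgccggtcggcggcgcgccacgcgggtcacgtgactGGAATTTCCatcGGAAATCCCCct
Nfkbie, chr17:45555450-45555699, plus strand: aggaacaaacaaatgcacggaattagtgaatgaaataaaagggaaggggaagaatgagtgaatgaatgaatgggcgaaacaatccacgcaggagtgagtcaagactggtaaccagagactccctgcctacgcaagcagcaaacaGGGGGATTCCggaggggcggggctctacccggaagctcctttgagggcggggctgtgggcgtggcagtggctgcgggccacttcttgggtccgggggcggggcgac
Tnip1, chr11:54962941-54963190, minus strand: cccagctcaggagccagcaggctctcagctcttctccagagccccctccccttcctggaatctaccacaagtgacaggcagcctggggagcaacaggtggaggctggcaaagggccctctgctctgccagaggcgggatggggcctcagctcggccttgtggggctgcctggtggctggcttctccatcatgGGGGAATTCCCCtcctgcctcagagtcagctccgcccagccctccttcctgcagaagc
Cyld, chr8:88696778-88697027, plus strand: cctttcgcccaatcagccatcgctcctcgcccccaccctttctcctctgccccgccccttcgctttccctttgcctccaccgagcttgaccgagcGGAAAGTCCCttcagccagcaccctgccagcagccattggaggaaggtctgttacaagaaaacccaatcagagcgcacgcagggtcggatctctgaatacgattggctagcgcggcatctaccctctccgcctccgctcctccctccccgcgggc

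The Nfkbia stretch held a match to the κB consensus from -29 to -20, counted from the base before the RefSeq start as -1, whose bases up to -21 also match GGANTTTCC, and a second GGANTTTCC match from -178 to -170. Tnfaip3 held κB matches from -125 to -116 and from -12 to -3, a GGANTTTCC match from -24 to -16 and a TGANTCA match from -136 to -130. Its stretch lies between the RefSeq start and an exon that GENCODE M21 places further upstream. Nfkbie held a κB match from -106 to -97 and a TGANTCA match from -156 to -150. Tnip1 and Cyld, whose RNA did not pass the test in either genotype, held κB matches from -58 to -47 and from -155 to -146, and that of Cyld also fits GGANTTTCC. Altogether 7 of the 9 genes held the κB consensus, against 9.55% of the 27025 genes of the table (8.46% of 32851 promoters). That of Bcl3 lay inside an exon and those of Nfkbid before its second start. Nfkbib, whose RNA passed the test in both genotypes, and Tnip2 held no κB match. GGANTTTCC stood before 3 of the 9, against 1.45% of all genes (1.25% of promoters), and TGANTCA before 2 of the 9, against 8.97% (7.81%). A match is a description of these letters and was not measured as a binding site.

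Ltbr was measured first as a check of the genotype labels. It had 101, 93.6 and 154 CPM (the normalised read count, relative to the library total scaled by its TMM factor) in the unstimulated control libraries and between 3.62 and 10.4 CPM in the unstimulated LTβRΔN libraries, a log2 difference of -3.80 (SE 0.452, edgeR adjusted p = 0.000109). In stimulated neutrophils it ranged from 84.6 to 148 CPM in control and from 0.705 to 18.1 CPM in LTβRΔN libraries (log2 difference -3.71, SE 0.417, edgeR adjusted p = 3.83e-05). The 16 library totals ranged from 1094335 (library 68) to 11932653 counts (library 71), and the stimulated LTβRΔN libraries had the lowest median, 2408608. The lowest count of a member in any library was 17, for Nfkbie in library 68. Markers of mature neutrophils summed to between 48511 and 79317 CPM in every library. The B cell list (6 of 7 genes in the table, 1 tested) summed to 14.3 to 21.2 CPM in unstimulated and 204 to 364 CPM in stimulated control libraries, and to 10.1 to 23.2 and 158 to 351 CPM in LTβRΔN libraries. Nearly all of it was Cd74, and the B cell genes Cd79b, Ms4a1 and Pax5 were at 0 in all libraries. Monocyte and macrophage genes summed to 609 to 958 CPM over all libraries. The median was lower in stimulated than in unstimulated libraries of both genotypes (679 and 771 CPM in control, 677 and 728.1 CPM in LTβRΔN). Csf1r, Cd68, Ly6c2 and Emr1 made up nearly all of this sum, while Ccr2, Cx3cr1, F13a1 and Ms4a6c reached at most 2.83 CPM in any library. Immature neutrophil genes summed to 1683 to 3320 CPM. Most of that was Lcn2, with group means of 2054 to 2147 CPM, and Mpo and Elane were at 0 in all libraries. Genes of T and NK cells, eosinophils and basophils, and erythroid cells reached at most 17.1, 114 and 67.0 CPM in any library. Summed platelet genes reached 206 CPM in 1 stimulated control library and 24.2 CPM at most in unstimulated controls, and the part of these markers in the results below was not tested. In bulk RNA, fewer cells of a type and less RNA per cell cannot be told apart.

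Library 73 stood apart among the unstimulated control libraries. It had the highest CPM of its group for 7 of the 10 members, while library 71 had the lowest for 7. Library 73 is also the only unstimulated library with index S521 in its label, which all 9 stimulated libraries carry, and libraries 67 to 72 carry S520. The Tnfaip3 values for genotype and interaction are given with and without library 73. Control differences between treatment labels are given against library 73 and against libraries 71 and 72 for the called genes and Bcl3. In LTβRΔN neutrophils the index and the treatment label cannot be told apart. Nothing in the labels says that the libraries of a group came from different animals, so the p-values measure the spread between these libraries.

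Stimulated control neutrophils had more RNA of the classical IκB genes, of A20 and of the atypical IκB genes Nfkbiz and Nfkbid. By edgeR's quasi-likelihood test with Benjamini-Hochberg adjustment over all tested genes, 6 of the 10 members were higher and 0 lower in stimulated control neutrophils, whereas 3.48% of the 9213 tested genes differed at all (2.82% higher and 0.662% lower). In LTβRΔN neutrophils 5 members were higher and 0 lower, against 3.73% of all tested genes (2.98% higher and 0.749% lower). The CPM ranges of stimulated and unstimulated libraries did not overlap for 6 members in either genotype, against 12.7% of all tested genes in control and 7.28% in LTβRΔN neutrophils. The median log2 fold change of the 10 members was 1.6 in control and 1.12 in LTβRΔN neutrophils, and that of all tested genes was -0.02 and -0.03. Because the members were chosen with earlier results of these data known, these shares are a description and not independent evidence.

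**Figure D1:**
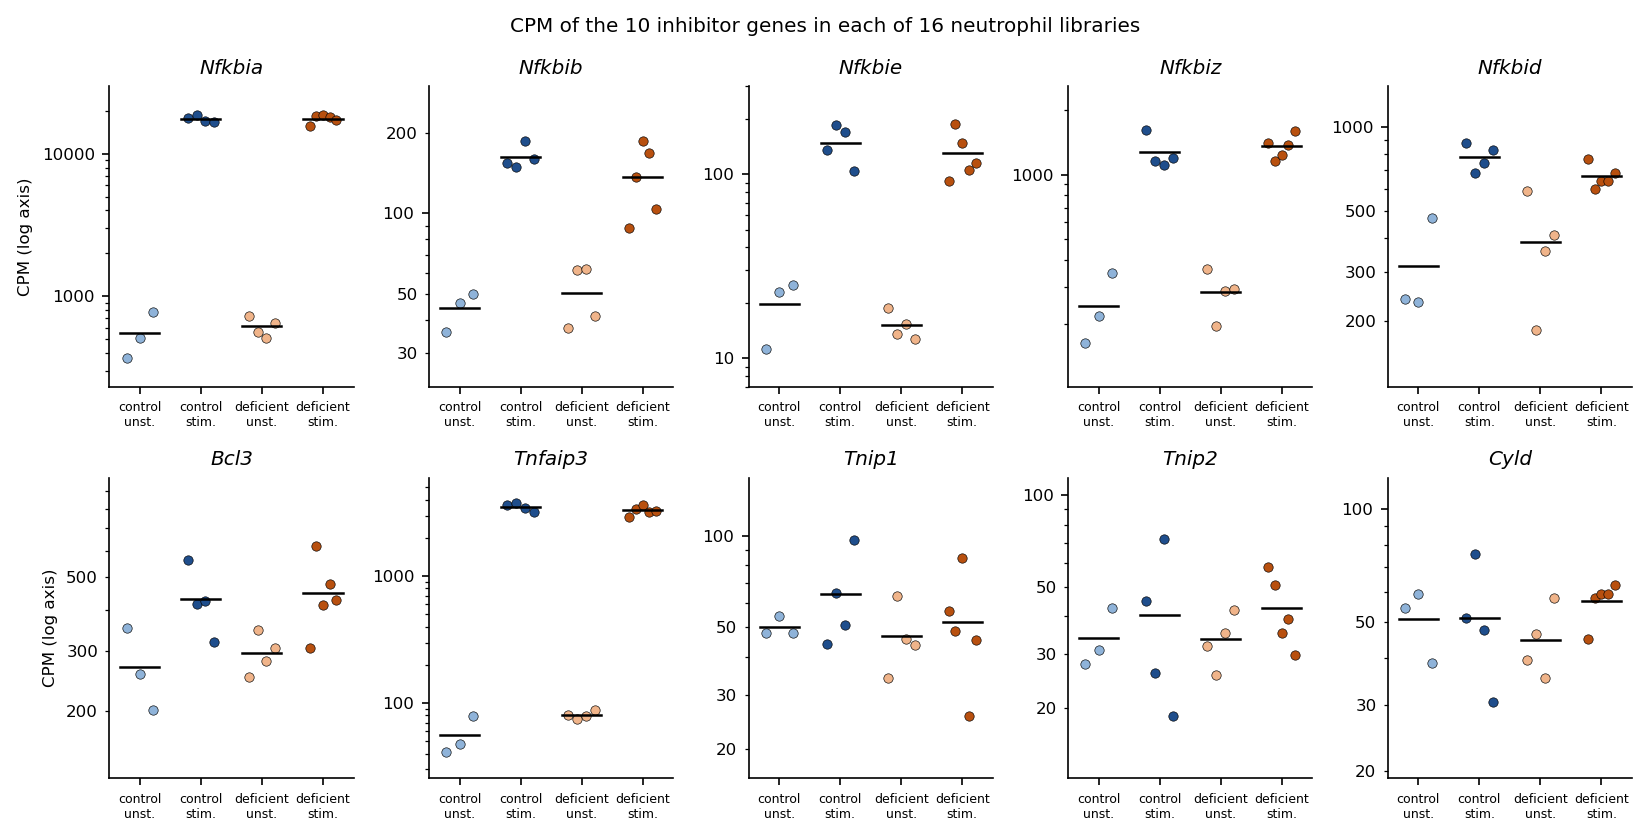
CPM (log axis, 1 scale per gene) of the 10 inhibitor genes in each of the 16 libraries, with 1 point per library and a bar at the group mean. Nfkbia, Tnfaip3, Nfkbie, Nfkbiz and Nfkbib lie in separate ranges in stimulated and unstimulated libraries of both genotypes, and the points of Tnip1, Tnip2 and Cyld are mixed.

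Nfkbia encodes IκBα, the classical inhibitor that NF-κB itself switches on most directly. It lies on chromosome 12 from 55489410 to 55492647 (GRCm38, minus strand). Its level was 369, 506 and 768 CPM in unstimulated and 17776, 18682, 16964 and 16684 CPM in stimulated control libraries. In LTβRΔN libraries it was 721.2, 563, 509.7 and 652 CPM without and 15756, 18350.0, 18629, 18141 and 17265 CPM with stimulation. The lowest stimulated library was thus far above the highest unstimulated library, and the 9 stimulated libraries lay close to each other in both genotypes. The log2 fold change was 5.0 (32-fold, SE 0.203, edgeR adjusted p = 5.27e-14) in control and 4.85 (28.8-fold, SE 0.175, edgeR adjusted p = 4.31e-15) in LTβRΔN neutrophils. By mean CPM, Nfkbia went from rank 289 to rank 3 among the tested genes in control and from rank 272 to rank 4 in LTβRΔN neutrophils. It took 0.0605% of all counts in unstimulated and 1.64% in stimulated control neutrophils, and 0.0652% and 1.66% in LTβRΔN neutrophils.

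Nfkbie encodes IκBε, a classical inhibitor that is slower to return after stimulation, and lies on chromosome 17 from 45555703 to 45563169 (plus strand). It had 11.2, 23.0 and 24.8 CPM in unstimulated and 135, 186, 169 and 104 CPM in stimulated control libraries. The values in LTβRΔN libraries were 18.7, 13.6, 15.4 and 12.7 CPM without and 91.6, 188, 147, 106 and 115 CPM with stimulation. The groups did not overlap, but the spread within the stimulated groups was wider than for Nfkbia (coefficients of variation of 24.5% and 29.9% against 5.13% and 6.61%). The log2 fold change was 2.92 (7.57-fold, SE 0.302, edgeR adjusted p = 3.00e-07) in control and 3.10 (8.55-fold, SE 0.276, edgeR adjusted p = 2.60e-08) in LTβRΔN neutrophils.

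Nfkbib encodes IκBβ, the classical inhibitor least known as an NF-κB target, and lies on chromosome 7 from 28758251 to 28767512 (minus strand). It had 36.0, 46.5 and 50.0 CPM in unstimulated and 154, 149, 187 and 159.8 CPM in stimulated control libraries. In LTβRΔN libraries it had 37.4, 61.6, 62.0 and 41.3 CPM without and 88.5, 136, 186, 167 and 104 CPM with stimulation. Again no stimulated library reached down to an unstimulated library. Its log2 fold change was 1.88 (3.69-fold, SE 0.246, edgeR adjusted p = 1.13e-05) in control and 1.45 (2.74-fold, SE 0.218, edgeR adjusted p = 7.47e-05) in LTβRΔN neutrophils. With the index as a term in the model the LTβRΔN value was 1.17 with an edgeR adjusted p of 0.624. Nfkbib shares 356 exon bases with Ccer2 and Sirt2 on the opposite strand, and the strand setting of the counting is not given in the sources used here.

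Set side by side per kb of merged exons, the classical IκB genes differed widely in level, and Nfkbia led in every library. It made up 92.4% ± 1.25 (SD, n = 3) of the summed CPM per kb of the 3 genes in unstimulated and 98.9% ± 0.140 (SD, n = 4) in stimulated control neutrophils. In LTβRΔN neutrophils its share was 92.9% ± 2.30 (SD, n = 4) without and 99.1% ± 0.183 (SD, n = 5) with stimulation. The per-kb ratio of Nfkbia to Nfkbib ranged from 13.8 to 20.7 in unstimulated and from 122 to 169 in stimulated control libraries. In LTβRΔN libraries it ranged from 11.1 to 26.0 and from 135 to 240.0. Nfkbib and Nfkbie thus took a smaller share in stimulated libraries although the RNA of both was higher there.

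Tnfaip3 encodes A20, which removes activating ubiquitin chains from proteins of the TNF receptor pathway, and lies on chromosome 10 from 19000910 to 19015657 (minus strand). It had 40.8, 47.7 and 79.4 CPM in unstimulated and 3627, 3743, 3469 and 3212 CPM in stimulated control libraries. The unstimulated LTβRΔN libraries had 80.6, 74.4, 79.2 and 88.1 CPM and the stimulated ones 2917, 3403, 3665, 3228 and 3275 CPM. The groups were far apart in both genotypes, with the largest fold changes of the 10 members. The log2 fold change was 5.98 (63.0-fold, SE 0.202, edgeR adjusted p = 1.97e-15) in control and 5.35 (40.7-fold, SE 0.171, edgeR adjusted p = 6.04e-16) in LTβRΔN neutrophils.

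Within single libraries the levels of Nfkbia and Tnfaip3 kept a narrow ratio under stimulation. Per kb, Nfkbia was 21.9 to 23.3 times Tnfaip3 in the 4 stimulated control libraries and 22.8 to 25.2 times in the 5 stimulated LTβRΔN libraries. Without stimulation the ratio was higher and wider, 40.5 to 47.6 in control and 28.9 to 40.2 in LTβRΔN libraries. The lower ratio in stimulated libraries goes with the larger fold change of Tnfaip3. These ratios are a description, and no test of them was made.

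**Figure D2:**
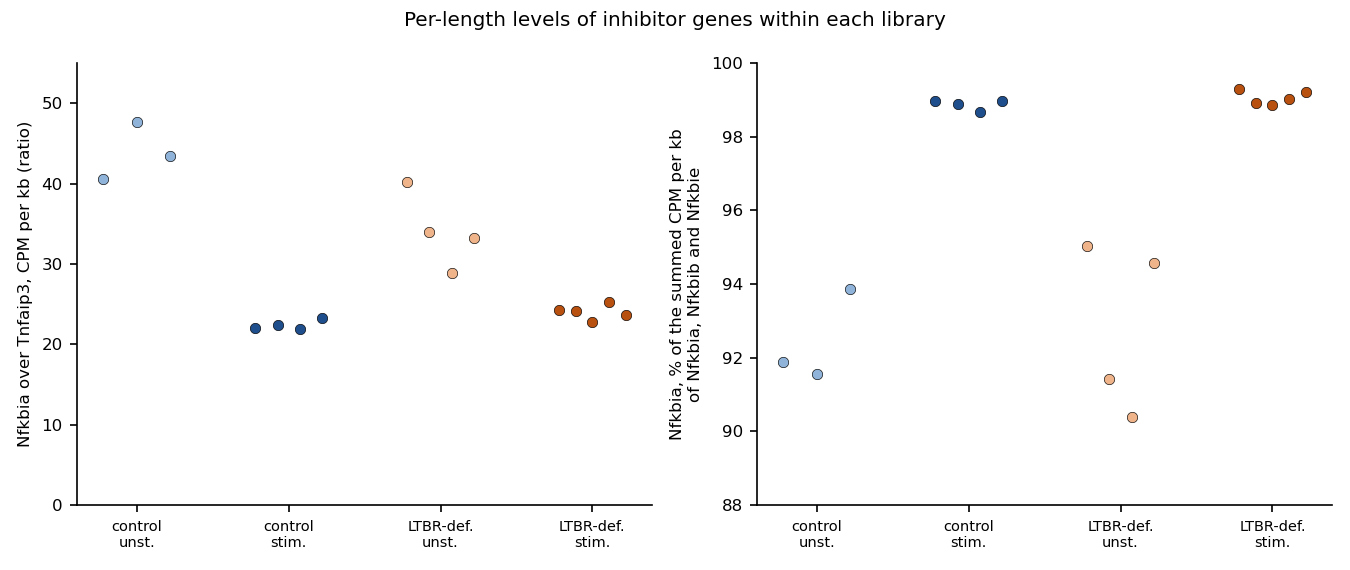
Ratio of Nfkbia to Tnfaip3 in CPM per kb of exon (left, axis from 0) and percent of the summed CPM per kb of Nfkbia, Nfkbib and Nfkbie taken by Nfkbia (right, axis from 88 to 100), with 1 point per library. The ratio sits between 21.9 and 25.2 in all 9 stimulated libraries, and the Nfkbia share is at least 98.7% there.

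The genes of the A20 partners and of the deubiquitinase CYLD did not pass the test in either genotype. Tnip1 (ABIN-1; chromosome 11, 54910785 to 54962917, minus strand) had 47.8, 54.4 and 48 CPM in unstimulated and 44.2, 64.8, 50.7 and 96.9 CPM in stimulated control libraries, and 34.2 to 63.2 and 25.6 to 84.5 CPM in LTβRΔN libraries. Its log2 fold change was 0.36 (95% interval -0.25 to 0.97) in control and 0.16 (-0.39 to 0.72) in LTβRΔN neutrophils. Tnip2 (ABIN-2; chromosome 5, 34496087 to 34513991, minus strand) had 27.9, 30.9 and 42.7 CPM in unstimulated and 44.9, 26.1, 71.6 and 18.7 CPM in stimulated control libraries, with a log2 fold change of 0.26 (-0.43 to 0.95). Cyld (chromosome 8, 88697028 to 88751945, plus strand) had 54.2, 59.4 and 38.7 CPM in unstimulated and 51.2, 75.7, 47.4 and 30.6 CPM in stimulated control libraries, with a log2 fold change of 0.0058 (-0.51 to 0.52). In LTβRΔN libraries Tnip2 ranged from 25.6 to 42.1 CPM without and from 29.8 to 57.9 CPM with stimulation, and Cyld from 35.3 to 57.9 and from 44.9 to 62.8 CPM, with log2 fold changes of 0.32 (-0.30 to 0.95) and 0.34 (-0.13 to 0.81). The groups overlapped for all 3 genes, and the intervals reached up to 0.97 on the log2 scale. The sign of Cyld and Tnip2 in control and of Tnip1 and Tnip2 in LTβRΔN neutrophils turned under at least 1 scaling or model.

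The atypical IκB genes lay between these extremes. Nfkbiz, whose product IκBζ is a nuclear coactivator of secondary response genes, lies on chromosome 16 from 55811375 to 55838899 (minus strand). It had 164, 219.6 and 348 CPM in unstimulated and 1618, 1153, 1112 and 1191 CPM in stimulated control libraries, and 361, 197, 288 and 292 against 1406, 1162, 1236, 1369 and 1598 CPM in LTβRΔN libraries. The groups did not overlap in either genotype. The log2 fold change was 2.38 (5.21-fold, SE 0.224, edgeR adjusted p = 7.39e-08) in control and 2.24 (4.73-fold, SE 0.195, edgeR adjusted p = 1.88e-08) in LTβRΔN neutrophils.

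Nfkbid, which encodes IκBNS, a nuclear IκB that binds p50, lies on chromosome 7 from 30421732 to 30428746 (plus strand). It had 241, 235 and 470.4 CPM in unstimulated and 880.2, 685, 743 and 825 CPM in stimulated control libraries. The unstimulated LTβRΔN libraries ranged from 186 (library 68) to 588 CPM (library 67) and the stimulated ones from 601 to 770.0 CPM. The groups did not overlap, but in LTβRΔN neutrophils 601 and 588 CPM lay next to each other. The log2 fold change was 1.31 (2.49-fold, SE 0.263, edgeR adjusted p = 0.00259) in control and 0.78 (SE 0.227, edgeR adjusted p = 0.0605) in LTβRΔN neutrophils, so that only the control value passed. With the index as a term the control value was 0.74 (edgeR adjusted p = 0.680) and the LTβRΔN value -0.20 (edgeR adjusted p = 1.0). Of 9 fits that each left out 1 LTβRΔN library, 1 passed, without library 67 (1.05, edgeR adjusted p = 0.00583). Among these 9 the value went down to 0.56 and the edgeR adjusted p up to 0.187. With the number in the column names as a block, the LTβRΔN value was 0.87 and passed (edgeR adjusted p = 0.00774).

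Bcl3 encodes a nuclear IκB protein that can activate or repress with p50 and p52 dimers, and lies on chromosome 7 from 19808462 to 19822770 (minus strand). It had 352, 257 and 201 CPM in unstimulated and 563, 415, 425 and 319 CPM in stimulated control libraries, and 251, 348, 282 and 307 against 308, 619, 413, 476 and 427 CPM in LTβRΔN libraries. The groups overlapped by single libraries, 71 against 83 in control and 68 against 75 in LTβRΔN neutrophils. The log2 fold change was 0.67 (SE 0.214, edgeR adjusted p = 0.107) in control and 0.60 (SE 0.190, edgeR adjusted p = 0.0891) in LTβRΔN neutrophils, and neither passed. Among fits that each left out 1 library, 2 of 7 passed in control, without library 71 or 83 (edgeR adjusted p = 0.0342 and 0.0426). In LTβRΔN neutrophils 1 of 9 passed, without library 75 (edgeR adjusted p = 0.0319). The highest adjusted p-values among these edgeR fits were 0.466 in control and 0.250 in LTβRΔN neutrophils. With the number in the column names as a block, Bcl3 passed in both genotypes (edgeR adjusted p = 0.00254 and 0.00323). Bcl3 shares 161 exon bases with the antisense gene Gm16175.

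**Figure D3:**
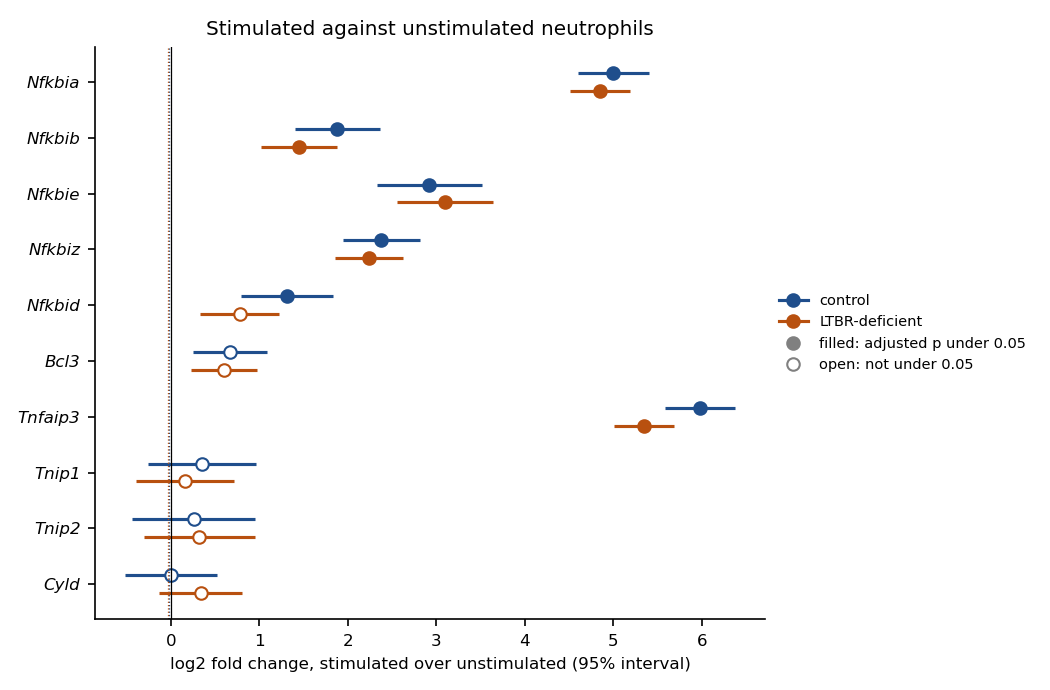
Log2 fold change of each inhibitor gene between stimulated and unstimulated neutrophils of control and LTβRΔN mice, with 95% intervals, filled where the adjusted p was under 0.05. Dotted lines mark the median of all tested genes, -0.02 and -0.03, and the values run from 0.0058 for Cyld to 5.98 for Tnfaip3 in control neutrophils.

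Within index S521, where library 73 is the only unstimulated library, the mean log2 difference of the 4 stimulated control libraries was 5.46 for Tnfaip3, 4.51 for Nfkbia, 2.53 for Nfkbie, 1.85 for Nfkbiz, 1.69 for Nfkbib and 0.73 for Nfkbid. Against libraries 71 and 72 it was 6.30, 5.34, 3.15, 2.72, 1.98 and 1.71 in the same order. The differences of these 6 genes were therefore in the same direction within and across the index, and smaller within it. Bcl3 went the other way, with 1.07 within the index and 0.49 across it. With the index as a term in the model, the log2 fold changes of the 5 called genes in LTβRΔN neutrophils were lower, at 1.17 for Nfkbib as given above, 4.5 for Tnfaip3 (edgeR adjusted p = 6.51e-11), 4.03 for Nfkbia (edgeR adjusted p = 1.60e-09), 2.55 for Nfkbie (edgeR adjusted p = 0.0187) and 1.38 for Nfkbiz (edgeR adjusted p = 0.0493). That term rests on library 73 against libraries 71 and 72.

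The order of the members by level changed between the labels. In unstimulated control neutrophils Nfkbia led with 340.2 ± 126 CPM per kb (SD, n = 3), followed by Nfkbid with 134 ± 57.2, Bcl3 with 109 ± 30.9, Nfkbiz with 48.6 ± 18.9 and Nfkbib with 20.3 ± 3.36. Below them came Tnip1 with 14.1 ± 1.05, Tnip2 with 12.6 ± 2.90, Tnfaip3 with 7.75 ± 2.85, Nfkbie with 6.46 ± 2.43 and Cyld with 4.04 ± 0.854 CPM per kb. The ranges of the neighbours Nfkbid and Bcl3 overlapped, as did those of each pair of neighbours from Tnip1 down to Cyld. In stimulated control neutrophils Nfkbia had 10886 ± 558.4 CPM per kb (SD, n = 4), and Tnfaip3 had moved from the eighth to the second place with 486 ± 31.8. Nfkbid had 334 ± 36.8, Nfkbiz 253 ± 46.9, Bcl3 174 ± 40.5, Nfkbib 74.9 ± 7.83 and Nfkbie 48.7 ± 11.9 CPM per kb, and the last places were taken by Tnip1 with 18.1 ± 6.63, Tnip2 with 15 ± 8.79 and Cyld with 4.07 ± 1.48. There the ranges of Nfkbid and Nfkbiz, of Nfkbiz and Bcl3, and of Tnip1 and Tnip2 overlapped. In LTβRΔN neutrophils Nfkbia and Tnfaip3 likewise led under stimulation, with 10949 ± 723.3 and 456 ± 37.6 CPM per kb (SD, n = 5).

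The comparison of genotypes asks whether the inhibitors depend on LTβR in neutrophils. In stimulated neutrophils 0 of the 10 members differed by edgeR between LTβRΔN and control, with 0 at an unadjusted p under 0.05 and 0 by DESeq2, and 0.0217% of all tested genes, Ltbr and Ap1s1, differed. The log2 difference was 0.0084 (95% interval -0.27 to 0.29) for Nfkbia and -0.091 (-0.35 to 0.17) for Tnfaip3. For the classical inhibitors Nfkbib and Nfkbie it was -0.25 (-0.65 to 0.15) and -0.19 (-0.65 to 0.28), and for Nfkbiz, Nfkbid and Bcl3 it was 0.094 (-0.26 to 0.45), -0.23 (-0.67 to 0.20) and 0.064 (-0.30 to 0.43). Tnip1 and Tnip2 had the widest intervals, with -0.31 (-0.85 to 0.23) and 0.074 (-0.54 to 0.69), and Cyld had 0.16 (-0.31 to 0.62). The interval of Nfkbia reached 0.29 at most, while those of Tnip1 and Tnip2 reached -0.85 and 0.69.

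In unstimulated neutrophils, too, 0 of the 10 members passed by edgeR and 0 by DESeq2, with 0.0217% of all tested genes (again Ltbr and Ap1s1), but Tnfaip3 was under 0.05 before adjustment. Its level was 80.6, 74.4, 79.2 and 88.1 CPM in the 4 LTβRΔN libraries and 40.8, 47.7 and 79.4 CPM in the control libraries. Library 73 alone among the controls lay within the LTβRΔN range. The log2 difference was 0.54 (1.45-fold, SE 0.162, edgeR adjusted p = 1). Over 7 fits that each left out 1 library of these groups, the log2 difference ran from 0.35 to 0.87, and 1 fit passed. Without library 73 it was 0.87 (edgeR adjusted p = 0.00408), and with the index as a term it was 0.87 (edgeR adjusted p = 0.00394). That term rests on library 73 against libraries 71 and 72. It therefore sets library 73 aside and repeats the fit without it. Nfkbia, in contrast, differed by 0.16 (95% interval -0.16 to 0.48), and the other 8 members by between -0.36 (Nfkbie) and 0.30 (Nfkbid), each with an interval that held 0.

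The difference between treatment labels was then compared between genotypes by an interaction term. By edgeR 0 of the 10 members and 0% of all tested genes passed, while 342 tested genes and 1 member were under 0.05 before adjustment, and DESeq2 called 0 members. That member was Tnfaip3, whose fold change was smaller in LTβRΔN neutrophils by 0.63 on the log2 scale (difference -0.63, SE 0.210, edgeR adjusted p = 1.0). Over 16 fits that each left out 1 library, this difference ran from -0.96 to -0.44, and 0 fits passed. It was -0.96 (edgeR adjusted p = 0.0505) without library 73 and -0.97 (edgeR adjusted p = 0.0488) with the index as a term. The index term again sets library 73 aside, so the latter value repeats the former. Nfkbid had -0.54 (95% interval -1.20 to 0.13), so its passing in control alone does not show a difference between genotypes. Nfkbia and Nfkbib had -0.15 (-0.58 to 0.27) and -0.43 (-1.05 to 0.19).

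**Figure D4:**
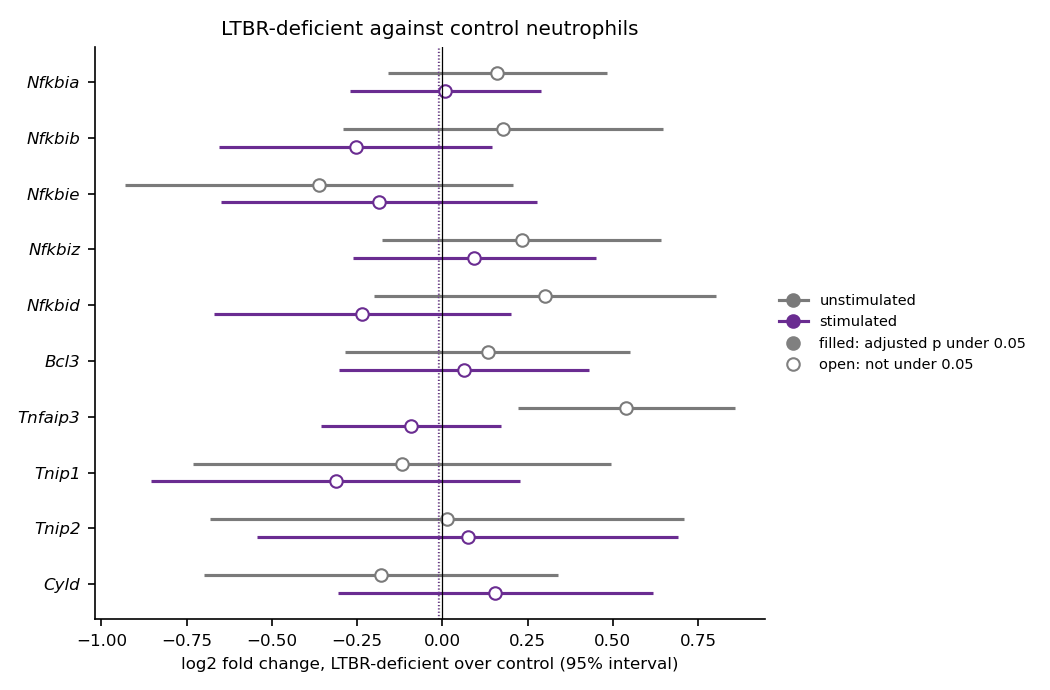
Log2 difference of each inhibitor gene between LTβRΔN and control neutrophils under each treatment label, with 95% intervals, open where the adjusted p was not under 0.05. Tnfaip3 in unstimulated neutrophils, at 0.54, is the only point whose interval leaves out 0.

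The other genes of the pathway were described from lists chosen by function, with earlier results of these data known. Of the NF-κB subunits, 3 of 5 were higher in stimulated control neutrophils and 0 lower: Rel with a log2 fold change of 1.18 (SE 0.202, edgeR adjusted p = 0.000439), Nfkb2 with 1.2 (edgeR adjusted p = 0.00226) and Relb with 1.26 (edgeR adjusted p = 0.0302). In LTβRΔN neutrophils Rel (1.81), Nfkb2 (1.42) and Nfkb1 (0.93, edgeR adjusted p = 0.0265) passed. Rel encodes c-Rel, and Nfkb1 and Nfkb2 encode the precursors of p50 and p52. Of 20 genes of the TNF receptor and IKK pathway, 1 was higher and 1 lower in stimulated control neutrophils, and 2 were higher in LTβRΔN neutrophils. Birc3, which encodes cIAP2, had 0.81 (edgeR adjusted p = 0.0136) and 0.64 (edgeR adjusted p = 0.0336), the receptor gene Tnfrsf1a had -0.44 in control neutrophils (edgeR adjusted p = 0.0360), and Ripk1 had 0.75 in LTβRΔN neutrophils (edgeR adjusted p = 0.0420). The list medians were -0.035 and -0.079.

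Among 16 tested genes that encode other negative regulators or partners of A20 and CYLD, 3 were higher and 0 lower in both genotypes. These were Zc3h12a (Regnase-1, an RNase that destroys inflammatory mRNAs), with 1.85 in control and 1.78 in LTβRΔN neutrophils (edgeR adjusted p = 2.22e-05 and 7.93e-06), N4bp1 with 1.29 and 1.33, and Traf1 with 3.68 and 3.62 from low means of 2.30 and 1.89 CPM in unstimulated neutrophils. The list medians were -0.14 and -0.00096, and the median of the interaction over the list was -0.070, opposite to their order. The 16 tested NF-κB response genes other than inhibitors had 11 higher and 0 lower in control and 12 higher and 0 lower in LTβRΔN neutrophils, with medians of 3.03 and 3.41. The median of the interaction over the same genes was -0.34, opposite to the order of these medians. The smallest adjusted p-values were those of Sod2 (4.51 in control and 4.0 in LTβRΔN neutrophils), Ier3 (4.37 and 4.12), Marcksl1 (3.20 and 3.01) and Bcl2a1b (4.65 and 3.95). The anti-apoptotic Bcl2a1b has near-identical copies among which reads could be split. Genes that answer STAT signals, downstream of IL-6 and GM-CSF, had 5 of 8 higher and 0 lower in both genotypes, led by Pim1 (2.67 and 2.50), Cish (8.60 and 8.05), Socs3 (4.03 and 3.59) and Socs1 (2.58 and 1.68). Cish, whose product restrains STAT5 signalling, had unstimulated means of only 1.01 and 2.44 CPM, against 435 and 378 CPM with stimulation. None of these lists held a gene that differed by genotype or interaction in the edgeR fit.

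**Figure D5:**
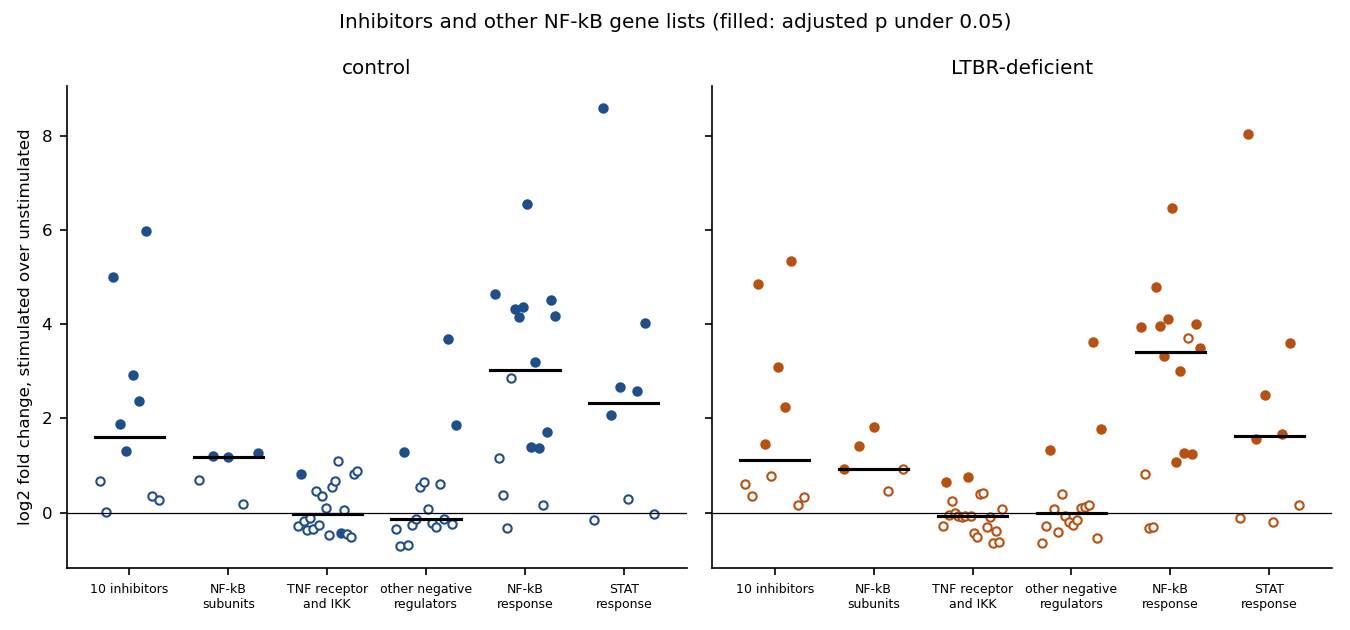
Log2 fold change of each tested gene of 6 lists between stimulated and unstimulated neutrophils, with control on the left and LTβRΔN on the right, 1 point per gene, filled where the adjusted p was under 0.05, and a bar at each list's median. The median of the 10 inhibitors, 1.6 and 1.12, lies between that of the TNF receptor and IKK genes, near 0, and that of the NF-κB response genes, 3.03 and 3.41.

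The genes whose pattern over the 16 libraries was nearest to a member were found by the root mean square difference of centred log2 CPM. Nearest to Nfkbia were Cxcl3, a neutrophil-attracting chemokine, at 0.28, Tnfaip3 at 0.38 and Ier3 at 0.43. Tnfaip3 had Nfkbia at 0.38, Cxcl3 at 0.51 and Serpinb2 at 0.60. Nfkbie had Marcksl1 at 0.28, Maff at 0.37 and Dusp2 at 0.38, and Bcl3 had Ninj1 at 0.22, Tnfaip2 at 0.23 and Ptpn1 at 0.23. Cxcl3 itself had mean levels of 6.10 and 199 CPM in unstimulated and stimulated control neutrophils, and 8.01 and 217 CPM in LTβRΔN neutrophils. All of these distances share the same libraries and the same split into treatment labels.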

How the data were processed

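Reads of 16 blood neutrophil libraries were counted by the authors, who deposited 1 table of whole-number counts per gene symbol without normalization. The submitters' processing notes name Bowtie 1.0.0, TopHat 1.4.1, HTSeq 0.7.1 and mm10, and the strand setting is not given in the sources used here. Libraries were grouped by genotype and treatment label. Totals ranged from 1094335 to 11932653 counts, and each of the 25 pairs within a group differed by more than sampling noise (chi-square 6.82 to 49.4 times the degrees of freedom).

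Genes were kept by filterByExpr (minimum count 10, minimum total 15), and 9213 of 23337 were tested with edgeR 4.0.16 in R 4.3.3 (TMM factors, 1 coefficient per group over all 16 libraries, quasi-likelihood test, Benjamini-Hochberg adjusted p under 0.05). Standard errors were derived as the log2 fold change over the square root of the test's F, and 95% intervals are 1.96 standard errors to each side. CPM used the TMM-scaled totals. Levels of different genes were divided by merged exon length from GENCODE M21 (GRCm38). Patterns were compared on log2 CPM with a prior count of 2. The test was also run on simulated counts. Alternatives were DESeq2's size factors, library totals only, other filters and DESeq2 1.42.0. Others were the index or the number in the column names in the model, the compared groups only, and each library left out.

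The members, the gene lists and the marker lists were chosen with earlier results of these data known. The text names the 10 members, Ltbr, up to 4 called genes of each list with the smallest adjusted p, and the 3 nearest genes of Nfkbia, Tnfaip3, Nfkbie and Bcl3. Ap1s1, Cd74, Cd79b, Ms4a1 and Pax5 were named after their values were seen, to spell out small counts. The monocyte, macrophage and immature neutrophil genes were likewise named to spell out the marker sums. Tnip3, Nkrf, Cd40 and Socs2 did not pass the filter.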

Additional observations from a re-analysis of the deposited data

Results flagged for a closer look

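In groups of 4 or 5 libraries, 2 of 30 sets of values held a library farther from the others than Dixon's test allows at 95%, where chance gives about 1 in 20, or 1.5. Nfkbiz had 1618 CPM in the stimulated control library 80, above the 1112 to 1191 CPM of the other 3. Cyld had 44.9 CPM in the stimulated LTβRΔN library 75, below the 57.7 to 62.8 CPM of the other 4.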

How the results depend on the processing

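With 1 exception, Nfkbib in LTβRΔN neutrophils with the index in the model (1.17, edgeR adjusted p = 0.624), the calls of Nfkbia, Nfkbib, Tnfaip3, Nfkbie and Nfkbiz between treatment labels held under every alternative run in both genotypes. When each library was left out, 6 to 7 members were called in control, against 219 to 334 of 9130 to 9604 tested genes. In LTβRΔN neutrophils 5 to 6 members were called, against 266 to 334 of 9139 to 9192 tested genes. For genotype 0 members were called in stimulated neutrophils, against 2 tested genes, and 0 to 1 in unstimulated neutrophils, against 2 to 6. The interaction had 0 members, against 0 to 2 tested genes. With the index in the model 1 member was called for genotype in unstimulated neutrophils and 1 for the interaction, Tnfaip3 in both cases. All tested genes had 3 and 1 calls there. Between treatment labels all calls fell from 321 to 157 in control and from 344 to 79 in LTβRΔN neutrophils. Bcl3 also passed in control with at least 10 counts in every library (edgeR adjusted p = 0.0363) and by DESeq2 (adjusted p = 0.0401), and in LTβRΔN neutrophils by these (0.0269 and 0.0335) and with the compared groups only (0.0328). Nfkbid passed in LTβRΔN neutrophils with every gene of at least 1 count (0.0225), at least 10 counts in every library (0.0168) and the compared groups only (0.0300). Genotype calls over all genes were 14 by DESeq2 and 1 with at least 10 counts in every library for stimulated neutrophils, against 2, and 4 by DESeq2, 4 with every gene and 1 with at least 10 counts for unstimulated neutrophils, against 2, and 6 without library 71. The interaction had 1 call with the index and 2 without library 71. Library totals alone moved the median of all genes by -0.25 and -0.18 and gave 201 higher and 272 lower calls in control and 216 and 293 in LTβRΔN neutrophils, against 260 and 61 and 275 and 69.

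Values not called that turned in direction were, in control neutrophils, Cyld with library totals (-0.24) and with every gene of at least 1 count (-0.0018), and Tnip2 with the index (-0.076), and in LTβRΔN neutrophils Tnip1 with library totals (-0.025) and Nfkbid (-0.20) and Tnip2 (-0.21) with the index. For genotype in unstimulated neutrophils they were Tnip2 with library totals (-0.046) and Bcl3 with the index (-0.040), and for the interaction Nfkbie (-0.027), Bcl3 (0.10) and Tnip2 (-0.14) with the index. The cause was not tested. With each library left out, the values that turned ranged in control neutrophils from -0.24 to 0.19 (Cyld) and -0.17 to 0.50 (Tnip2), and in LTβRΔN neutrophils from -0.066 to 0.34 (Tnip1). For genotype in stimulated neutrophils they ranged from -0.014 to 0.047 (Nfkbia), -0.084 to 0.22 (Bcl3), -0.16 to 0.51 (Tnip2) and -0.027 to 0.40 (Cyld), and in unstimulated neutrophils from -0.059 to 0.48 (Nfkbia), -0.043 to 0.37 (Bcl3), -0.27 to 0.010 (Tnip1) and -0.11 to 0.21 (Tnip2). For the interaction they ranged from -0.48 to 0.067 (Nfkbia), -0.026 to 0.47 (Nfkbie), -0.48 to 0.085 (Nfkbiz), -0.31 to 0.11 (Bcl3), -0.42 to 0.078 (Tnip1) and -0.18 to 0.50 (Tnip2).

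Of 9 numbers in the column names 7 are shared by an unstimulated and a stimulated library of the same genotype. No label says what the numbers mark. The deviations of same-numbered libraries correlated by 0.021 to 0.069, with the own number highest for 6 of 7. These values do not settle whether the libraries are pairs, and the main fit did not pair them. With the number as a block 7 members were called in each genotype, against 324 of 9213 tested genes in control and 343 in LTβRΔN neutrophils. Bcl3 (edgeR adjusted p = 0.00254 and 0.00323) and, in LTβRΔN neutrophils, Nfkbid (0.00774) joined. For the interaction 0 members were called, and Tnip2 (-0.24) and Cyld (-0.023) turned in control neutrophils. The block could not be fitted for the genotype comparisons. The smallest libraries, 68 with 1094335 and 77 with 1506153 counts, give the coarsest values for members of low level, such as Nfkbie with 17 counts in library 68.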
